A study of Mus musculus with 4 samples.

Results

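The hyaline chondrocytes described here were the 825 barcodes, of 31279 that passed the filters, in which the transcripts of Col9a1, Col9a2, Matn3 and Col11a2 together reached at least 5 unique molecular identifiers (UMIs, each standing for 1 captured transcript molecule) and 0.1% of all UMIs. Barcodes in which S100a8 and S100a9, abundant transcripts of neutrophils, reached 3% of UMIs were left out. A barcode passed with 1000 to 40000 UMIs and 200 or more genes, if mitochondrial transcripts took no more than 10% of its UMIs and haemoglobin transcripts no more than 0.2%. The cells were thus selected on the measured levels of these 4 genes, whose values are given as a description without a test. The cells came from bone tissue of wild-type mice, in 2 libraries from mice without treatment (Ctrl) and 2 libraries from mice whose hind limbs had been unloaded by tail suspension for 28 days (HLU). In both groups the marrow was flushed out of tibiae and femurs before enzymatic digestion of the bone, and libraries were made with the 3′ droplet kit of 10x Genomics in its version 3.1. The study's methods give an age of 8 weeks at the start of unloading, whereas the design text of the series speaks of postnatal day 28. The Ctrl libraries (replicates 1 and 2) held 57925383 and 61296053 UMIs, each in 10000 barcodes, of which 7311 and 7495 passed. The HLU libraries held 47819046 and 99849070 UMIs in 10000 and 10003 barcodes, of which 7571 and 8902 passed. Wherever 4 values follow each other, they stand in this order.

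Hyaline cartilage covers the joint surfaces and forms the growth plates of long bones. Its fibrils are built from type II collagen with types IX and XI on or within them, and matrilin-3 (Matn3) links fibrils to other matrix proteins. Chondrocytes at the joint surface secrete lubricin (Prg4), whereas those of the growth plate divide in columns, pass through a prehypertrophic stage marked by the signal Ihh, and enlarge into hypertrophic cells that make type X collagen (Col10a1) before mineralization. Tissue position was not recorded for these cells, so groups within them are named here by the genes that set them and not by a place in cartilage.

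In mm10 with GENCODE M21, Col9a1 (ENSMUSG00000026147) lies at chr1:24177610-24252684, Col9a2 (ENSMUSG00000028626) at chr4:121039385-121055322, Matn3 (ENSMUSG00000020583) at chr12:8947929-8972028 and Col11a2 (ENSMUSG00000024330) at chr17:34039437-34066685, all on the plus strand. Of the 4 genes, Col9a2 was seen in 99.7% and 99.2% of the hyaline chondrocytes of Ctrl replicates 1 and 2 and in 100% of those of both HLU libraries. Matn3 was seen in 58.5% and 44.4% of the Ctrl cells and in 28% and 14.3% of the HLU cells. In neutrophil-rich barcodes, which should lack it and thus show the free RNA in the droplets, Matn3 was seen in 1.76% and 1.31% in Ctrl and in 0.0365% and 0.0167% in HLU. Those barcodes were shallower, with medians of 3779, 3530, 3757.5 and 6227 UMIs against 11358, 13504, 13012 and 12806.5 in the hyaline chondrocytes. Col9a2 had the highest level of the 4 genes in 78.8%, 72.4%, 80% and 78.6% of the cells, while all 4 genes were seen together in 158 of 311, 190 of 475, 4 of 25 and 1 of 14 cells. The high share with Col9a2 follows from the rule, which the sum of the 4 genes could meet without Matn3.

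Several markers of cartilage that the rule did not use were present, but Matn1 was seen in a minority of the cells. Levels are given as CPM, the UMIs of a gene per 1000000 UMIs summed over the cells of 1 library; the 3′ assay counts 1 end per transcript, so genes can be compared without a correction for length. Col2a1, the chain of type II collagen (chr15:97975602-98004695), reached 11629, 10187, 9705 and 5205 CPM in Ctrl replicates 1 and 2 and HLU replicates 1 and 2. Fxyd2, a small regulator of the sodium pump (chr9:45399669-45410278), reached 1681, 1802, 955 and 658 CPM. Sox9, the transcription factor that drives the chondrocyte programme, reached 673, 1160, 577 and 528 CPM. For these genes HLU replicate 2 was the lowest library. Matn1, a further marker of hyaline cartilage, was seen in 18 of 311, 31 of 475, 3 of 25 and 6 of 14 cells.

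Markers of other cell types were also counted. The limits on S100a8, S100a9 and haemoglobin transcripts capped the neutrophil and erythroid sums beforehand, so low values of these do not bear on identity. Ptprc, the common leukocyte antigen, stood at 13.8, 20.3, 17.1 and 59.8 CPM, and the 10 leukocyte markers summed to 0.0251%, 0.0286%, 0.0614% and 0.0392% of UMIs. The 12 neutrophil markers summed to 0.208%, 0.392%, 0.805% and 0.473%, led by S100a9 in 3 libraries and by Lcn2 in Ctrl replicate 2. The 15 osteoblast markers summed to 0.119%, 0.157%, 0.103% and 0.206%. The 17 stromal and fibroblast markers summed to 0.662%, 0.999%, 0.845% and 0.323%, most of it Dcn (5621, 8710, 7445 and 2225 CPM), which chondrocytes also express. Endothelial markers stayed at or below 0.00229% and erythroid markers at or below 0.01%. Scrublet scored 32, 22, 0 and 2 of the hyaline chondrocytes as putative doublets, which is 10.3%, 4.63%, 0% and 14.3% of them against 5.85%, 5.99%, 6.06% and 7.12% of all passing barcodes. Between 23 and 36 barcode sequences were shared by any pair of libraries, and 0 of them were hyaline chondrocytes in both.

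The rule's limit of 0.1% did not fall in a gap. In Ctrl, 82 cells lay just inside it (up to 0.12%) and 132 barcodes just outside (0.08% to 0.1%). Prg4 stood at 14033 CPM just inside, 21841 CPM just outside and 4390 CPM over all 786 Ctrl cells. Col2a1 stood at 4645, 3654 and 10716 CPM in the same order. In HLU only 4 cells lay just inside and 3 just outside. The median share of the 4 genes was 0.313%, 0.425%, 0.398% and 0.204% of a cell's UMIs, and 74, 127, 2 and 0 cells exceeded 1%.

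The first question was how many of these cells each condition yielded. Hyaline chondrocytes numbered 311 in Ctrl replicate 1 and 475 in Ctrl replicate 2, which is 4.25% (95% exact Clopper-Pearson interval 3.8 to 4.74) and 6.34% (5.80 to 6.91) of the passing barcodes. They numbered 25 in HLU replicate 1 and 14 in HLU replicate 2, which is 0.330% (0.214 to 0.487) and 0.157% (0.0860 to 0.264). The groups did not overlap, and intervals cover counting error only. The mean share was 5.30% ± 1.47 (SD, n = 2) in Ctrl and 0.244% ± 0.122 (SD, n = 2) in HLU, 21.7-fold higher in Ctrl. Without HLU replicate 1 the fold was 33.7. The cells were taken up for description because nearly all of them lay in Ctrl, so this difference restates their choice and is given as a description; an exact two-sided permutation test with 2 libraries a group can in any case not go below p = 0.333.

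**Figure D1:**
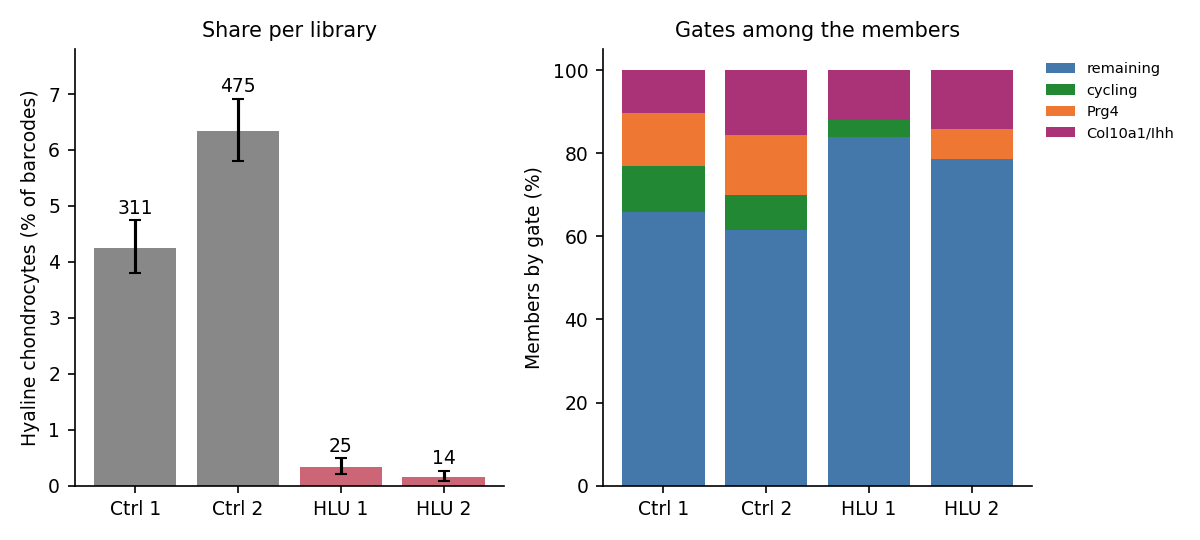
Left, hyaline chondrocytes as a percentage of passing barcodes in each library, with 95% exact intervals and the number of cells above each bar; both Ctrl bars (4.25% and 6.34%) lie above both HLU bars (0.330% and 0.157%). Right, the percentage of those cells in each of the gated groups; the remaining cells form 65.9%, 61.5%, 84% and 78.6% of the 4 libraries.

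Other skeletal cells were scarce in the HLU libraries as well. Other chondrocyte-like barcodes, which carried Acan, Cytl1 or Col10a1 but missed the rule, numbered 1866 and 1311 in Ctrl and 2 and 60 in HLU. Stromal barcodes numbered 1797 and 1032 against 15 and 63. As a share of all chondrocytes, the hyaline cells made up 14.3% and 26.6% in Ctrl and 92.6% (25 of 27) and 18.9% (14 of 74) in HLU, so the HLU libraries lay far apart. The mean over both HLU libraries was above that of Ctrl (exact permutation p = 0.667), which rested on HLU replicate 1, since HLU replicate 2 lay within the Ctrl range. Barcodes outside all skeletal classes numbered 3327, 4672, 7527 and 8764. The part of tissue yield in these counts was not tested.

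Within Ctrl, the hyaline chondrocytes were divided by 3 gates, each requiring at least 5 UMIs and 0.1% of UMIs, applied in the order cycling genes, Col10a1 with Ihh, then Prg4. Cycling cells numbered 34 and 40 in Ctrl replicates 1 and 2 (10.9% and 8.42%), Col10a1/Ihh cells 32 and 74 (10.3% and 15.6%) and Prg4 cells 40 and 69 (12.9% and 14.5%). The remaining 205 and 292 cells (65.9% and 61.5%) passed none of the gates. Of the Col10a1/Ihh cells, 27 of 32 and 58 of 74 also passed the Prg4 gate. Median depth was 8123 and 11563.5 UMIs in the Col10a1/Ihh cells, 7740 and 9134 in the Prg4 cells and 11891 and 14368 in the remaining cells. Putative doublets were 1 and 2 of the Col10a1/Ihh cells, 6 and 5 of the Prg4 cells and 18 and 15 of the remaining cells. The part of depth and of free RNA in differences between these groups was not tested. In HLU, 1 and 0 cells were cycling, 3 and 2 were Col10a1/Ihh cells, 0 and 1 were Prg4 cells and 21 and 11 remained.

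The Prg4 cells and the remaining cells are set side by side here by values without a test. Matn3 and Col9a1 belong to the rule that chose the cells, so their values cannot show that the groups differ in composition. The remaining cells, which the gate held to low Prg4, carried 245 and 300 CPM of it, and neutrophil-rich barcodes of the same libraries, with no such limit, carried 1245 and 2000 CPM. The Prg4 cells carried 23667 and 26222 CPM, and their Matn3 was 169 and 30.6 CPM against 674 and 256 CPM in the remaining cells. Col9a1 stood at 352 and 206 CPM against 1446 and 1492. Single cells of 1 library differed in depth, from 1053 to 39113 UMIs in Ctrl replicate 1 and from 1046 to 39523 in Ctrl replicate 2. Across these cells, the rank correlation of Prg4 with Fxyd2 was −0.53 in both Ctrl libraries (n = 311 and 475 cells). That of Prg4 with Matn3, a gene of the rule, was −0.31 and −0.33. Col2a1 and Col9a1 correlated at 0.78 and 0.64. The part of depth and of free RNA in these correlations was not tested.

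**Figure D2:**
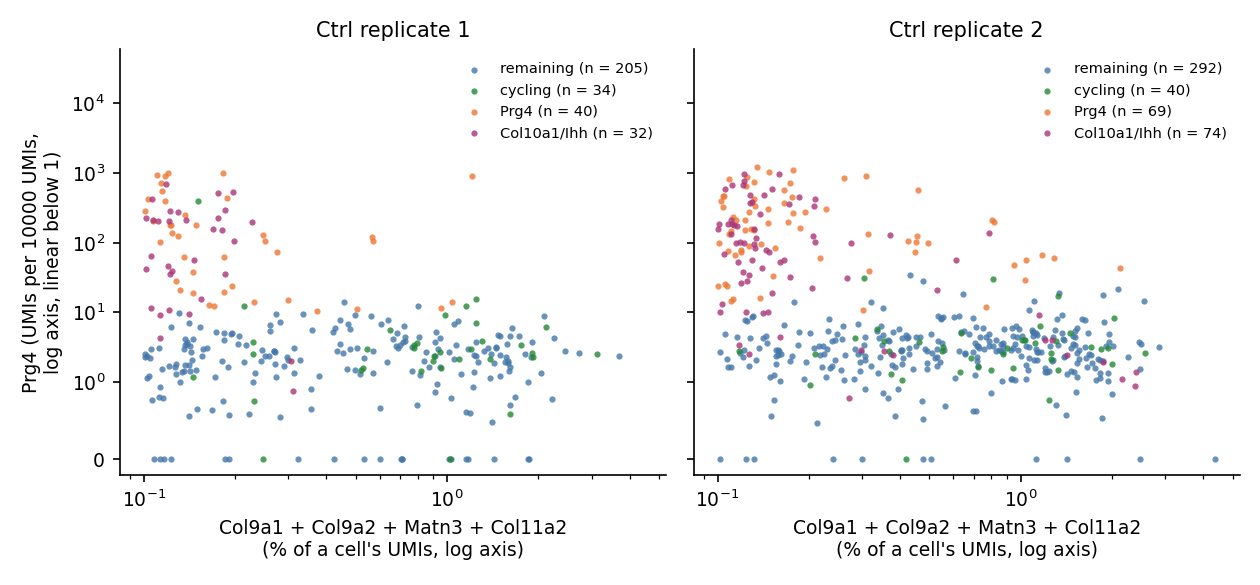
Each point is 1 hyaline chondrocyte of Ctrl replicate 1 or 2, placed by the share of its UMIs from the 4 genes of the rule (log axis) and by its Prg4 UMIs per 10000 UMIs (log axis, linear below 1), and coloured by gated group. The points reach from the limit of 0.1% up to 4.37% of UMIs, and the points of the Prg4 cells crowd toward the low end of that range.

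Gene levels of each gated group were compared with those of the remaining cells by edgeR on UMIs summed per library, with the library as a block (n = 2 Ctrl libraries). The gate genes were left out of these tests. Since groups were cut on genes that vary together with others, the tests say how the groups differ beyond the spread between the libraries, not that the groups are separate kinds of cell.

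The Prg4 cells had higher levels of genes known from the joint surface. Of 7580 genes tested, 239 were higher (3.15%) and 112 lower (1.48%). In the list of superficial zone genes, 8 of the 13 tested were higher and 0 lower, with a median log2 fold change of 3.12 against −0.04 over all genes. Clu, a secreted chaperone of the joint surface, stood at 5765 and 4391 CPM in the Prg4 cells and at 549 and 243 CPM in the remaining cells (log2 fold change 3.97 ± 0.30 (SE), adjusted p = 9.97e-05). Both values of the Prg4 cells lay above both values of the remaining cells.

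Most of the other matrix and signalling genes were not called. Of 20 cartilage matrix proteins tested, 5 were higher in the Prg4 cells than in the remaining cells and 1 lower. Of 10 proteoglycans 2 were higher and 0 lower, and of 9 cartilage collagens 0 were called. Of 26 genes of Ihh, PTHrP, BMP and FGF signalling, 4 were higher and 1 lower. Single genes that were higher are given next. Cytl1, a small protein secreted by chondrocytes, stood at 9458 and 8145 CPM against 880 and 412 CPM (4.02 ± 0.28, adjusted p = 7.63e-05). Dcn, the small proteoglycan decorin, stood at 17121 and 27602 CPM against 3545 and 3143 CPM (2.91 ± 0.42, adjusted p = 0.0025). Serpine2, an inhibitor of serine proteases, stood at 2983 and 4597 CPM against 234 and 197 CPM (4.34 ± 0.36, adjusted p = 0.000122). Wif1, a Wnt inhibitor, stood at 507 and 1220 CPM against 116 and 39.8 CPM, and the growth arrest gene Gas1 at 175 and 708 CPM against 40.3 and 27.4 CPM. Both passed the test (adjusted p = 0.0042 and 0.00603).

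Transcription factors of the joint surface followed. Creb5 stood at 155 and 115 CPM against 14 and 21 CPM (log2 fold change 3.08 ± 0.32, adjusted p = 0.00035). Erg, an ETS factor of developing joints, stood at 22.5 and 15.3 CPM against 1.6 and 0.5 CPM (adjusted p = 0.00758). In the list of chondrocyte transcription factors, 4 of 22 tested were higher (Creb5, Erg, Epas1 and Prrx1) and 0 lower.

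Saa1, an acute phase protein, stood at 1374 and 729 CPM against 3.1 and 24.1 CPM (log2 fold change 6.63 ± 0.67, adjusted p = 0.000275). Msmp, a small secreted protein, stood at 893 and 278 CPM against 12.8 and 9.3 CPM. Cd28 and Pdcd1, best known as receptors of T cells, were also higher: Cd28 stood at 84.5 and 58.1 CPM against 4.3 and 4.5 CPM (adjusted p = 0.000122), and Pdcd1 at 19.7 and 21.4 CPM against 1.2 and 0.5 CPM (adjusted p = 0.00406). Ptprc was at 14.1 and 19.9 CPM in the Prg4 cells and at 12 and 24.8 CPM in the remaining cells. Markers of other cell types moved in part with this group. Of the neutrophil markers tested 2 of 6 were higher (Lcn2 and Camp) and 0 lower, of the stromal and fibroblast markers 3 of 10 were higher (Dcn, Myoc and Thbs4) and 0 lower, and of the osteoblast markers 2 of 10 were lower (Bglap and Bglap2) and 0 higher. Of the leukocyte markers 0 of 5 were called, and of the muscle markers 0 of 1. Their part in the other values was not tested.

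Of 15 genes of hypertrophy and mineralization tested, 3 were lower in the Prg4 cells (Mmp13, Panx3 and Pth1r) and 2 higher (Cd200 and Scin), and of 16 proteases and inhibitors 2 were lower (Mmp13 and Serpina1a) and 1 higher (Serpine2). Mmp13, the main collagenase of cartilage, stood at 158 and 216 CPM against 1370 and 3061 CPM (log2 fold change −3.32 ± 0.36, adjusted p = 0.000417). Epyc, a small proteoglycan of growth plate cartilage, stood at 14.1 and 10.7 CPM against 80.3 and 194 CPM (−3.36 ± 0.49, adjusted p = 0.00296). Bglap, which encodes osteocalcin, stood at 2.8 and 6.1 CPM against 327 and 391 CPM. Panx3, a channel protein of prehypertrophic chondrocytes and osteoblasts, had 0 UMIs in the Prg4 cells and 112 UMIs in the remaining cells, at least 5.56-fold lower by a floor of 3 UMIs over the group. Pth1r, the receptor of parathyroid hormone-related protein, stood at 76 and 16.8 CPM against 250 and 110 CPM (−1.91 ± 0.45, adjusted p = 0.0343). The calls of Epyc, Panx3 and Pth1r were lost without the library block, and those of Panx3 and Pth1r also without putative doublets.

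Col2a1 and Fxyd2 did not pass the test. Col2a1 stood at 6816 and 8731 CPM in the Prg4 cells and at 12960 and 10489 CPM in the remaining cells (adjusted p = 0.579), and Fxyd2 at 594 and 375 CPM against 1944 and 2268 CPM (−1.92 ± 0.56, adjusted p = 0.0832).

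**Figure D3:**
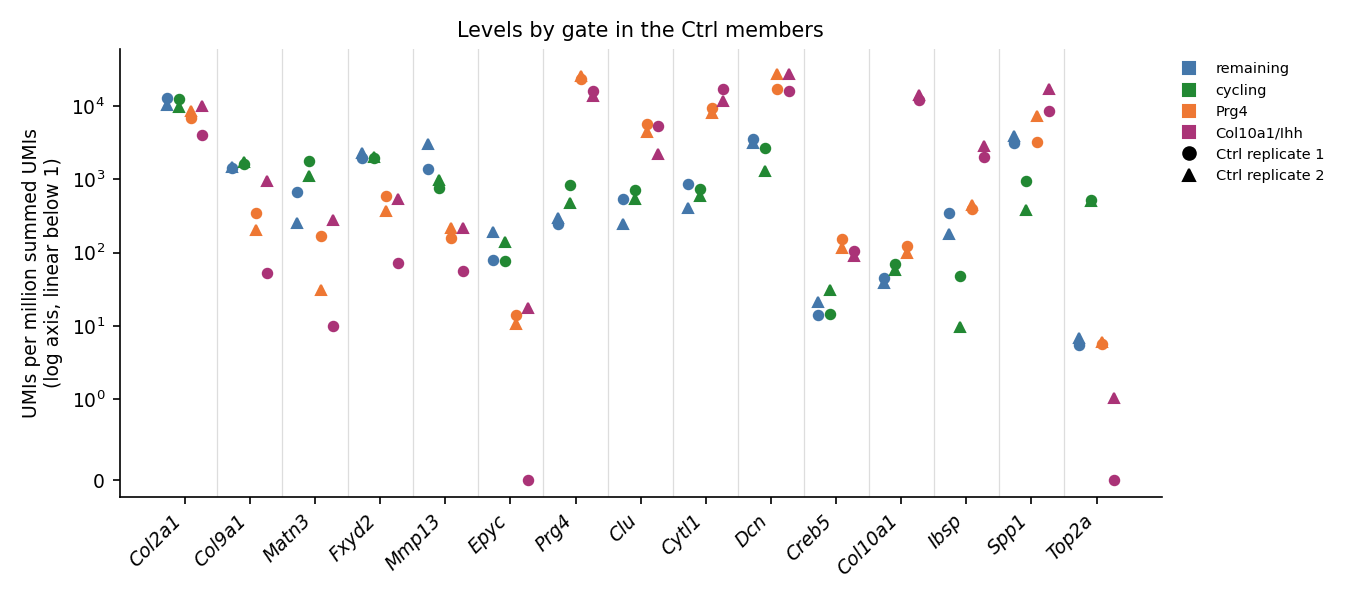
Levels of 15 genes in CPM (log axis, linear below 1) in the gated groups of the Ctrl hyaline chondrocytes, circles for Ctrl replicate 1 and triangles for Ctrl replicate 2. Clu, Cytl1, Dcn and Creb5 are high in the Prg4 and Col10a1/Ihh cells. Matn3 is highest in the cycling cells, and Mmp13 is higher in the remaining cells than in the Prg4 and Col10a1/Ihh cells. Prg4, Col10a1 and Top2a belong to the gates.

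The Col10a1/Ihh cells were set by Col10a1 rather than by Ihh. Col10a1 stood at 12284 and 14342 CPM, against 45.7 and 38.6 CPM in the remaining cells, which the gate held to low levels. Ihh stood at 49.2 and 42.2 CPM against 1.6 and 6.7 CPM. Against the remaining cells, 287 of 7580 genes were higher (3.79%) and 122 lower (1.61%). Of the superficial zone list, 9 of 13 were higher and 0 lower (median log2 fold change 2.99, all genes −0.05).

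Most of these cells passed the Prg4 gate as well, so genes high in the Prg4 cells were bound to recur. Cytl1 stood at 16995 and 11607 CPM (log2 fold change 4.76 ± 0.29, adjusted p = 1.66e-05), Serpine2 at 4970 and 4277 CPM (4.67 ± 0.36, adjusted p = 4.12e-05) and Clu at 5328 and 2236 CPM (3.49 ± 0.29, adjusted p = 6.76e-05). Both comparisons share the remaining cells as the reference. Fgf18, a growth factor for cartilage, stood at 29.5 and 10.3 CPM against 0 and 0.5 CPM (5.68 ± 1.01, adjusted p = 0.00905). Plat, the tissue plasminogen activator, stood at 59.1 and 107 CPM against 1.6 and 4.3 CPM, and Bmp2 at 1031 and 836 CPM against 135 and 164 CPM (adjusted p = 0.00348).

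Genes of hypertrophy gave a mixed picture: of the 15 tested, 4 were higher and 1 lower. Ibsp, a sialoprotein of mineralizing matrix, stood at 2055 and 2832 CPM against 349 and 183 CPM (log2 fold change 3.54 ± 0.49, adjusted p = 0.0016). Spp1, which encodes osteopontin, stood at 8653 and 17426 CPM against 3121 and 3967 CPM (2.08 ± 0.49, adjusted p = 0.0323). Mmp13 was lower, at 55.8 and 216 CPM (−3.79 ± 0.37, adjusted p = 0.000165). The call of Spp1 was lost without the library block and without putative doublets. Ccl20, a chemokine, had 0 UMIs in these cells and 874 UMIs in the remaining cells, at least 54.9-fold lower. The call was lost without the library block. Ccl20 stood at 15.1 CPM in the remaining cells of Ctrl replicate 1 and at 199 CPM in those of Ctrl replicate 2. The bound, taken over both libraries, thus rested mainly on Ctrl replicate 2. Of the markers of other cell types, 2 of 10 osteoblast markers were higher (Ibsp and Dlx5) and 1 lower (Bglap2), 2 of 10 stromal and fibroblast markers were higher (Dcn and Thbs4) and 1 lower (Lum), and 1 of 6 neutrophil markers was higher (Lcn2); their part in the other values was not tested.

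Splitting the Col10a1/Ihh cells by the Prg4 gate gave sets that differed in some genes and not in others, reported as values without a test. In the 5 and 16 cells without Prg4, Spp1 stood at 42599 and 37212 CPM, against 3211 and 8594 CPM in the 27 and 58 cells with it. Ibsp stood at 6035 and 7563 CPM against 1417 and 719 CPM, and Alpl, the phosphatase of mineralization, at 238 and 707 CPM against 45.7 and 22.3 CPM. Pth1r stood at 737 and 631 CPM against 64.8 and 20.9 CPM. Cytl1 ran the other way, at 2708 and 2876 CPM without Prg4 against 19285 and 15504 CPM with it, as did Clu (737 and 183 CPM against 6064 and 3153 CPM). Col10a1 itself overlapped, at 16821 and 10125 CPM against 11557 and 16225 CPM, as did Mmp13, at 47.5 and 153 CPM against 57.1 and 244 CPM. Ihh stood at 47.5 and 137 CPM against 49.5 and 0 CPM. Mgp stood at 44262 and 907 CPM against 1246 and 626 CPM, so its high value rested on 5 cells of Ctrl replicate 1. In HLU, 5 of 5 Col10a1/Ihh cells lacked Prg4, with Spp1 at 4637 and 23991 CPM.

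The cycling cells stood close to the remaining cells in type II collagen. Top2a, a topoisomerase of dividing cells and one of the gate genes, stood at 522 and 507 CPM, against 5.4 and 6.9 CPM in the remaining cells. Of 7580 genes, 408 were higher (5.38%) and 93 lower (1.23%). Higher genes included the mitotic kinase Pbk at 202 and 260.5 CPM against 0.388 and 0.953 CPM (log2 fold change 8.08 ± 0.46, adjusted p = 3.09e-06), and Ect2, needed for cytokinesis, with 96 UMIs against 0 (at least 134-fold higher). Matn3 was highest here of the 4 groups, at 1780 and 1110 CPM. Col2a1 stood at 12504 and 9874 CPM against 12960 and 10489 CPM (adjusted p = 0.911; the sign of the difference turned without putative doublets, to 0.07 on the log2 scale).

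Of the 14 cartilage collagens and 24 matrix proteins listed, 9 and 20 were tested in the cycling cells and 0 passed in either direction. Of 15 genes of hypertrophy and mineralization, 3 were lower (Ibsp, Mmp13 and Spp1) and 0 higher, and of 16 proteases and inhibitors 3 were lower (Adamts5, Mmp13 and Timp1) and 0 higher. The calls of Mmp13 and Timp1 were lost without the library block. Spp1 stood at 954 and 379 CPM against 3121 and 3967 CPM (log2 fold change −2.36 ± 0.51, adjusted p = 0.0147) and Ibsp at 48.7 and 9.6 CPM against 349 and 183 CPM (−3.31 ± 0.53, adjusted p = 0.00213). Apoe, the apolipoprotein, stood at 131 and 84.3 CPM against 533 and 415 CPM (−2.22 ± 0.28, adjusted p = 0.000376). Of the osteoblast markers 3 of 10 were lower (Ibsp, Col1a1 and Col1a2), of the stromal and fibroblast markers 2 of 10 (the same 2 collagen genes) and of the neutrophil markers 1 of 6 (Lcn2), with 0 higher in each. Of markers of marrow cells, Elane stood at 5.9 and 6.4 CPM in the cycling group, Mpo at 0 and 3.2 CPM and Ptprc at 23.6 and 13.9 CPM. S100a8 stood at 1034 and 669 CPM against 433 and 794 CPM, and 7 and 0 of the cycling cells were putative doublets; the part of either was not tested. The call of Spp1 was lost without putative doublets. Median depth was 19321.5 and 22845 UMIs in the cycling cells.

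The second comparison set all hyaline chondrocytes of Ctrl (786) against the other chondrocyte-like cells of Ctrl (3177), to show where they differ within cartilage. Of 12755 genes tested by edgeR with the library as a block, 1596 were higher in the hyaline cells (12.5%) and 1057 lower (8.29%). The genes of the rule and of the gates for the other classes were not tested, and cells were sorted by expression, so calls on genes that vary with those are no independent evidence.

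Most of the cartilage collagens and cell cycle genes tested were higher in the hyaline cells. Of the 10 cartilage collagens tested, 8 were higher and 0 lower. Col2a1 stood at 11629 and 10187 CPM against 1826 and 2406 CPM (log2 fold change 2.25 ± 0.25, adjusted p = 0.000146). Col9a3, the third chain of type IX collagen, stood at 1909 and 1794 CPM against 151 and 151 CPM (3.50 ± 0.23, adjusted p = 1.71e-05). Fxyd2 stood at 1681 and 1802 CPM against 52.9 and 132 CPM (4.27 ± 0.30, adjusted p = 1.33e-05). The chondromodulin gene Cnmd stood at 1261 and 1007 CPM against 95.1 and 118 CPM and Ucma, a matrix protein of growth plate cartilage, at 561 and 358 CPM against 60.5 and 89.6 CPM, both higher (adjusted p = 2.17e-05 and 0.000207).

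Of 20 genes of ion channels and transport tested, 8 were higher in the hyaline cells and 2 lower. The single genes given next were among the higher calls with the largest fold changes, and several of them stood at low levels. Slc13a5, a citrate transporter, stood at 27.6 and 49.4 CPM against 0.161 and 0.352 CPM (log2 fold change 7.06 ± 0.34, adjusted p = 7.09e-06). The carbonic anhydrase Car12 stood at 44.2 and 37 CPM against 0.0536 and 0.211 CPM (8.09 ± 0.41, adjusted p = 8.31e-06). Panx3 stood at 25 and 12.7 CPM against 0.0536 and 0.281 CPM, Il17b, an interleukin, at 29.6 and 24.3 CPM against 0.107 and 0.211 CPM, and Rspo4, an activator of Wnt signalling, at 47.5 and 22.9 CPM against 0.0536 and 0.141 CPM. Syt8, a synaptotagmin, stood at 136 CPM in both libraries against 0.5 and 1.2 CPM. For each of these genes both hyaline values lay above both values of the other cells. The genes were picked for large folds with the same direction in both libraries, so this adds no support.

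Genes of hypertrophy and of growth plate signalling moved in both directions. Of the 18 genes of hypertrophy and mineralization tested, 6 were higher and 3 lower, of 38 genes of Ihh, PTHrP, BMP and FGF signalling 9 were higher and 16 lower, and of 13 genes of the resting zone 5 were higher and 3 lower. Pth1r stood at 221 and 118 CPM against 7.6 and 11.7 CPM (log2 fold change 3.97 ± 0.32, adjusted p = 2.14e-05). Runx2, a factor of hypertrophy and bone formation, stood at 60 and 58.2 CPM against 7.2 and 12.9 CPM (2.48 ± 0.22, adjusted p = 3.8e-05), and Sp7 (osterix) at 29.1 and 38.6 CPM against 3.4 and 3.2 CPM (adjusted p = 3.8e-05). In the list of chondrocyte transcription factors, 8 of 24 were higher and 6 lower. Of the 22 cycling genes, 21 were higher and 0 lower, with Top2a at 94.5 and 75.3 CPM against 1.3 and 4.4 CPM (4.88 ± 0.38, adjusted p = 1.97e-05). Markers of other cell types moved with the group as well. Of the osteoblast markers tested 5 of 11 were higher and 0 lower (Alpl, Dmp1, Smpd3, Sp7 and Runx2), while of the stromal and fibroblast markers 6 of 14 were lower and 1 higher (Apod). Of the neutrophil markers 3 of 9 were lower (Lcn2, Elane and Mpo), of the leukocyte markers 3 of 10 (Laptm5, Cd79a and Cd74) and of the endothelial markers 1 of 3 (Eng), with 0 higher in each, and 0 of 5 erythroid markers were called. Of the muscle markers 3 of the 4 tested were higher and 0 lower, the most abundant being Tnni2 at 88.3 and 62.7 CPM against 1.4 and 2 CPM. The 7 muscle markers summed to 0.0107% and 0.00707% of UMIs against 0.000386% and 0.000507%, and their part in the other values was not tested.

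**Figure D4:**
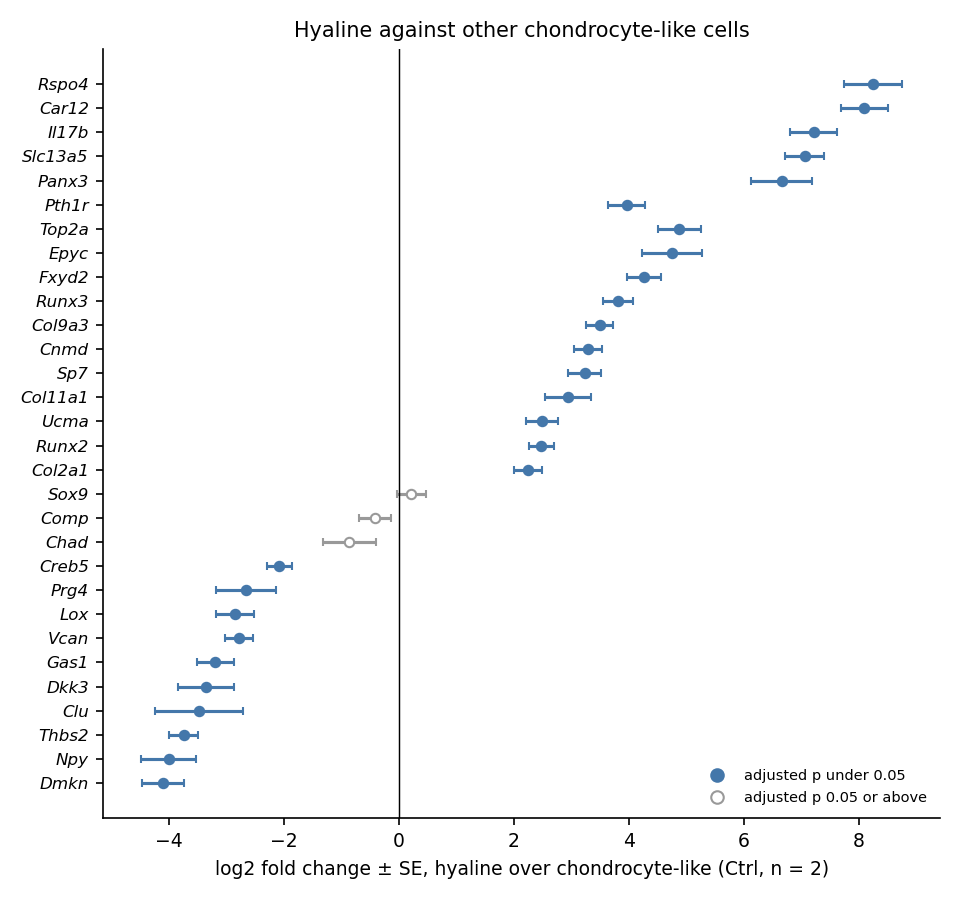
Log2 fold changes with standard errors (bars) from edgeR for 30 genes, hyaline chondrocytes over other chondrocyte-like cells in the 2 Ctrl libraries. Values run from Rspo4 at 8.25 to Dmkn at −4.10; Sox9, Comp and Chad (open points) did not pass the threshold.

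Genes of the joint surface were lower in the hyaline cells. Of the superficial zone list, 13 of 16 tested were lower and 0 higher (median log2 fold change −2.11, all genes −0.01). Prg4 stood at 3690 and 4796 CPM against 19744 and 29814 CPM (−2.66 ± 0.52, adjusted p = 0.00451) and Clu at 1422 and 971 CPM against 12960 and 10762 CPM (−3.47 ± 0.76, adjusted p = 0.00879). DESeq2 did not call Clu. The matrix glycoprotein Thbs2 stood at 6.9 and 3 CPM against 76.7 and 40.7 CPM (−3.74 ± 0.25, adjusted p = 1.23e-05), and Gas1 at 100.1 and 127 CPM against 949 and 967 CPM (−3.19 ± 0.32, adjusted p = 8.94e-05). Npy, a neuropeptide, stood at 46.5 and 13.2 CPM against 314 and 501 CPM (−3.99 ± 0.48, adjusted p = 0.000231), and the proteoglycan versican (Vcan) at 7.7 and 5.8 CPM against 37.3 and 46 CPM.

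Other chondrocyte genes did not pass. In the list of cartilage matrix proteins, 8 of 20 were higher, 2 lower and 10 not called. Sox9 stood at 673 and 1160 CPM against 669 and 757 CPM (log2 fold change 0.22 ± 0.25, adjusted p = 0.586), and its sign turned when Ctrl replicate 2 was left out (−0.17). Comp, a pentameric matrix protein, stood at 5037 and 3683 CPM against 5704 and 4852 CPM (−0.41 ± 0.28, adjusted p = 0.331). Chad, a matrix protein that binds chondrocytes, stood at 6771 and 4190.5 CPM against 10091 and 7663 CPM (−0.86 ± 0.46, adjusted p = 0.221).

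Against the stromal cells of Ctrl (2829), 2054 of the 12755 genes were higher in the hyaline cells (16.1%) and 1779 lower (13.9%). Of the stromal and fibroblast list, 13 of 14 tested were lower and 0 higher. Of the leukocyte markers 8 of 10 were lower, of the neutrophil markers 2 of 9 and of the endothelial markers 2 of 3, with 0 higher in each, while of the osteoblast markers 5 of 11 were higher and 1 lower and of the muscle markers 3 of 4 higher and 0 lower; their part in the other values was not tested. Col2a1 stood at 204 and 208 CPM and Col9a3 at 21.5 and 26.2 CPM in the stromal cells. The difference of Col9a3 was 6.44 ± 0.27 (SE) on the log2 scale.

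The third comparison set the 39 hyaline chondrocytes of HLU against the 786 of Ctrl. Of 9717 genes tested by edgeR on UMIs summed per library, 0 passed in either direction (0% and 0%), while 924 had an unadjusted p under 0.05. DESeq2 called 10 higher and 29 lower in HLU. The HLU sums rested on 349914 and 183852 UMIs, against 3917152 and 6757970 in Ctrl. Leaving out Ctrl replicate 1 gave 97 calls and leaving out Ctrl replicate 2 gave 60, whereas leaving out either HLU library gave 0. In each of these fits the lone library was assumed to vary like the pair of the other group.

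The values themselves showed shared and unshared features. The 4 genes of the rule, given as a description, stood at 1271, 1322, 1017 and 397 CPM for Col9a1, at 2525, 2962, 2143 and 1251 CPM for Col9a2, at 1920, 2606, 1532 and 952 CPM for Col11a2 and at 768, 356, 42.9 and 10.9 CPM for Matn3. The sum of these genes chose the cells, so the lower HLU values cannot show that the groups differ. Matn3 lay furthest apart, and its HLU values came from 7 of 25 and 2 of 14 cells. Prg4 was at 3690 and 4796 CPM in Ctrl and at 2.86 and 870 CPM in HLU (adjusted p = 0.487). Of the HLU cells, 1 of 25 and 1 of 14 held any Prg4 UMI. Free Prg4 differed likewise, with 0.63 and 89.1 CPM in the neutrophil-rich barcodes of HLU against 1245 and 2000 CPM in Ctrl.

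Mgp, an inhibitor of mineralization, stood at 8178 and 5390 CPM in Ctrl and at 24769 and 12896 CPM in HLU, without overlap, though it did not pass (log2 fold change 1.33 ± 0.46, adjusted p = 0.474). Spp1 stood at 3188, 5724, 14441 and 5287 CPM and Mmp13 at 1053, 2088, 1300 and 7000 CPM, so the groups overlapped for both, and the difference changed sign without HLU replicate 1 for Spp1 (−0.15 on the log2 scale) and without HLU replicate 2 for Mmp13 (−0.41). Pth1r stood at 221 and 118 CPM against 34.3 and 5.4 CPM (−3.02 ± 0.64, adjusted p = 0.317). Cycling genes were lower in value throughout: 22 of 22 had a negative log2 fold change (median −3.17, all genes −0.06), 0 passed the adjusted threshold, and Top2a stood at 94.5 and 75.3 CPM against 2.9 and 5.4 CPM (adjusted p = 0.217). Of the genes of hypoxia and glycolysis 24 of 24 had a negative log2 fold change, with a median of −1.49, and of the cartilage collagens 10 of 10, with a median of −0.65. Over all 9717 genes, 46.5% had a positive log2 fold change. Genes of a list can vary together, so these counts of signs are a description. Markers of other cells went both ways, with 0 called in any list. A positive log2 fold change was found for 4 of 4 erythroid (median 1.89), 7 of 9 neutrophil (median 0.75) and 6 of 7 leukocyte markers (median 0.73), and for the 1 endothelial marker tested. It was negative for 9 of 12 stromal and fibroblast (median −0.83), 7 of 11 osteoblast (median −0.23) and 2 of 2 muscle markers (median −1.88). S100a8 stood at 547 and 746 CPM in Ctrl and at 2469 and 1322 CPM in HLU, and the part of these transcripts in the other values was not tested.

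**Figure D5:**
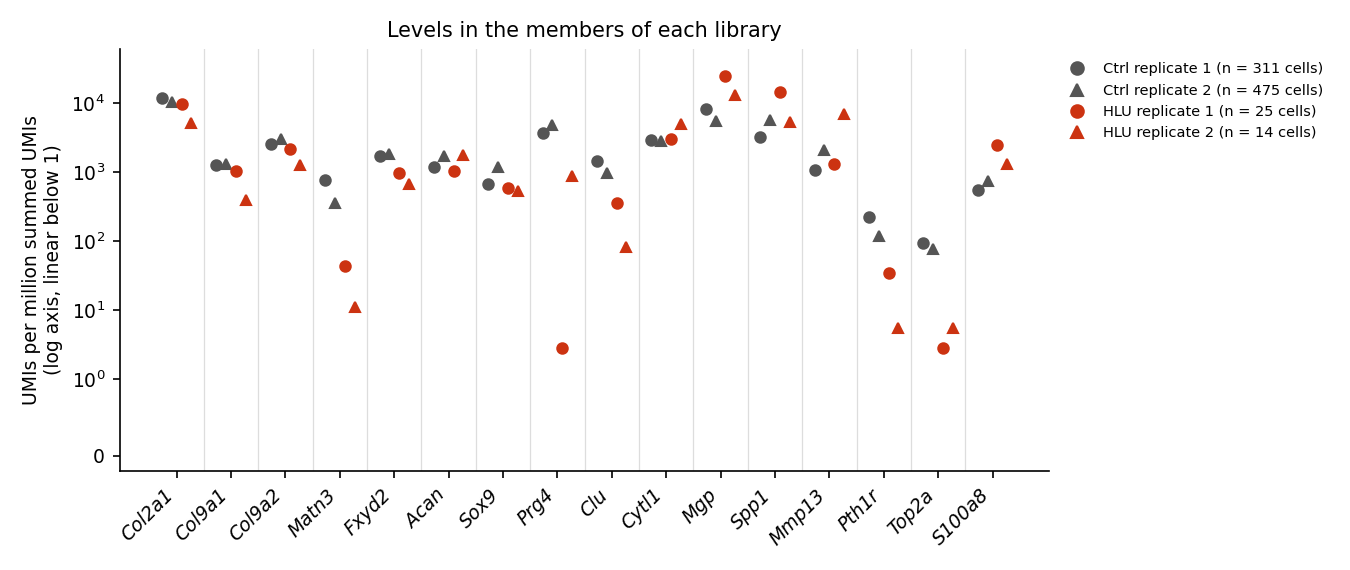
Levels of 16 genes in CPM (log axis, linear below 1) in the hyaline chondrocytes of each library, Ctrl in grey and HLU in red, circles for replicate 1 and triangles for replicate 2. Matn3, Pth1r and Top2a lie lower and Mgp higher in both HLU libraries, and Prg4 spans from 2.86 to 870 CPM between the HLU libraries.

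Cartilage transcripts were also followed over all passing barcodes of each library, where fewer cells of a type and less RNA per cell cannot be told apart. Of 15367 genes tested by edgeR, 919 rose (5.98%) and 2640 fell (17.2%) in HLU. Without the genes of the rule, 11 of 11 cartilage collagens fell, with a median log2 fold change of −4.54 against 0.04 over all genes. The cells were taken up for description because they lay nearly all in Ctrl, so this count is not independent of their choice. Of 21 cartilage matrix proteins tested besides Matn3, 20 fell and 0 rose, and of 24 chondrocyte transcription factors 13 fell and 0 rose. Col2a1 stood at 1537 and 1880 CPM in Ctrl and at 100 and 26.5 CPM in HLU (−4.72 ± 0.70, adjusted p = 0.0111). Sox9 stood at 328 and 368 CPM against 6.4 and 8.1 CPM (−5.50 ± 0.36, adjusted p = 0.00318), and Fxyd2 at 152 and 272 CPM against 14.9 and 5.8 CPM (−4.32 ± 0.58, adjusted p = 0.00866). The rule's own gene Matn3 stood at 58.9 and 43.1 CPM against 0.5 and 0.1 CPM. Markers of other skeletal cells fell as well. Of the stromal and fibroblast markers 15 of 17 were lower (median −3.42) and of the osteoblast markers 7 of 15 (median −2.65), with 0 higher in each. Leukocyte markers moved the other way, with 7 of 10 higher and 0 lower. S100a8 stood at 20564 and 29616 CPM in Ctrl and at 65680 and 69998 CPM in HLU. Without Ctrl replicate 1 the calls were 0 higher and 1048 lower, and without Ctrl replicate 2 they were 19 and 1327; without HLU replicate 1 they were 3464 and 4267, and without HLU replicate 2 they were 2451 and 3679.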

How the data were processed

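The authors counted reads with Cell Ranger 6.0.0 on mm10 (reference 3.0.0) and deposited raw UMI counts of 31053 genes per barcode, without normalization or cell labels; Seurat 4.1.0 is also named in the submitters' processing notes. Here barcodes were filtered and gated on those counts with Python 3.11.15 and scipy 1.17.1. Putative doublets were scored with Scrublet in scanpy 1.11.5 (expected rate 0.8% per 1000 barcodes, that share of top scores) and kept. Counts were summed per library and group and tested in edgeR 4.0.16 by the quasi-likelihood test after TMM scaling and filterByExpr, with Benjamini-Hochberg adjusted p under 0.05 as the threshold. The CPM printed are plain, without TMM factors. The study's methods give 2 mice per group, as many as libraries, but no source ties a library to a mouse; p-values measure only the spread between 2 libraries per group. Named genes are those of 22 lists plus, per test, up to 10 per direction with the largest fold among calls with at least 20 CPM and the same direction in both Ctrl libraries, or no overlap between groups; a selection of these is described. The members, gates and lists were chosen with earlier results of these data known. Alternatives included DESeq2 1.42.0.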

Additional observations from a re-analysis of the deposited data

How the results depend on the processing

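The difference in the share of hyaline chondrocytes, HLU minus Ctrl, was −5.05 percentage points. It was −7.63 with a limit of 0.05% for the 4 genes, −3.39 with 0.2% and −8.03 among barcodes of at least 5000 UMIs, and lay between −6.09 and −4.01 with each library left out. As a share of skeletal barcodes it turned to 21.2 points and as a share of chondrocytes to 35.3 points, in both cases through HLU replicate 1, as HLU replicate 2 alone lay below the Ctrl mean. Without the library as a block, a test of unpaired sums, calls numbered 137 (117 higher, 20 lower) for the Col10a1/Ihh cells, 103 (90 and 13) for the Prg4 cells and 300 (269 and 31) for the cycling cells. Without a filter on low counts they were 792, 707 and 891, and with gates at 0.2% the Prg4 cells had 554. For HLU against Ctrl within the hyaline chondrocytes, alternatives chosen after seeing the data gave 73 calls with the replicate number as a block, 39 with DESeq2 and 356 without the filter, and 0 to 97 with a library left out; RLE factors, cells outside the gates and removal of doublets gave 0. The labels did not say whether the replicate numbers pair the samples. Deviations of same-numbered libraries correlated at −0.06 over all barcodes and −0.04 in the hyaline cells. With 2 libraries per group these values cannot settle it. Over all barcodes, the replicate block gave 3388 calls against 3559, and leaving out a library gave 1048 to 7731. Of 1383 alternative values for 169 gene results, 1293 kept their direction and, where the fit gave a p-value, their side of the threshold. In fits with only 1 Ctrl library, the gated groups and cell classes gave no p-value, so only direction was compared. Of the other values, 42 lost and 43 gained a call, 5 changed sign without being called, and 0 called values reversed. Lost calls numbered 22 without the library block, 8 with DESeq2 and 8 without putative doublets, and not all are marked for the single genes. Whether the lower UMI sums of HLU set the number of calls there was not tested.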

Other observations

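The following genes were picked after their values were seen. Cxcl3, a neutrophil chemokine, stood at 202 and 510 CPM in the remaining cells of Ctrl replicates 1 and 2, and was lower in all 3 gated groups: in the Prg4 cells at 11.3 and 62.7 CPM (edgeR, adjusted p = 0.00112), in the Col10a1/Ihh cells at 3.3 and 20.6 CPM (adjusted p = 0.000197) and in the cycling cells at 14.7 and 149 CPM (adjusted p = 0.00084). These 3 comparisons share the remaining cells, and each call was lost without the library block. Serpina1a, a serine protease inhibitor, stood at 2446 and 1422 CPM in the hyaline cells and at 116 and 85.3 CPM in the other chondrocyte-like cells (log2 fold change 4.13). Hamp, which encodes hepcidin, was nearly limited to Ctrl replicate 2, with 0.8 and 62 CPM in the hyaline cells of the Ctrl libraries and 0 CPM in both HLU libraries.

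Among genes of collagen processing and sulfation, 11 of 34 were higher and 5 lower in the hyaline than in the other chondrocyte-like cells of Ctrl, where 12.5% of all 12755 genes were higher and 8.29% lower. Papss2, which makes the sulfate donor for cartilage proteoglycans, stood at 223 and 151 CPM against 45.6 and 40.6 CPM, and the cross-linking enzyme Lox ran the other way, at 156 and 266 CPM against 1281 and 1489 CPM. Of 24 genes of the secretory pathway and its stress response, 2 were higher and 3 lower, which is near those shares of all genes.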
